A study of Mus musculus with 24 samples.

Results

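The imprinted Dlk1-Dio3 miRNA cluster was followed across mouse eye tissues and 2 further neural samples. Its members were the miRNAs on the array whose names carry the numbers of the cluster's hairpins, alone or with the arm suffix -5p or -3p. By this rule 87 of the 1881 mouse miRNAs on the array were members, from 44 of 45 hairpin numbers. For the remaining number the array lists only names with an added letter, which the rule does not take in. Of the 87 members, 40 were detected on at least 1 array and 47 on none. Of all 1881 miRNAs, 394 were detected on at least 1 array.

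The signals came from 24 one-color arrays, 1 for each of 8 tissues in each of 3 groups of C57BL/6J mice, and this number of arrays limits the precision. The tissues were cornea, iris, lens, retina, RPE/choroid (labeled choroid), sclera, and samples labeled SCN and LGN, which the labels do not spell out and which are taken here as brain regions. Normal mice wore no lens, and the −30 D group wore a −30 D lens, which induces myopia, on the right eye from the age of 3 weeks for 3 weeks. The third group is labeled with a 0 D lens. According to the methods, the mice were male and the RNA of 3 mice was mixed for each ocular array of normal and −30 D mice. How the 0 D, SCN and LGN samples were obtained is not given in the sources used here. Since each tissue has 1 array in each group and the labels name no separate animals, every spread below is a spread between arrays. All 8 tissues of a group lay on 1 slide, and the effects of the slide and of the lens group cannot be told apart.

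The Dlk1-Dio3 region on mouse chromosome 12 is imprinted. The paternal chromosome expresses the protein-coding genes Dlk1, Rtl1 and Dio3, while the maternal chromosome expresses the long noncoding RNAs Meg3, Rian and Mirg and the miRNAs that lie along them. A group of these miRNAs lies antisense to Rtl1 and can cleave its transcript. In adult mammals the cluster is best known for its expression in neurons, and its other well-known sites are the embryo and the placenta. A mature miRNA recognizes its targets mainly through its seed, here bases 2 to 8 from the 5′ end.

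The RefSeq sequences of 83 members (GRCm38.p6) lay on the plus strand of chromosome 12 between positions 109563710 and 109743784, a span of 180 kb. Both arms of miR-770 lay within the annotated Meg3 gene, 20 members within the bounds of Rtl1, both arms of miR-370 within Rian and 14 members within Mirg, while 45 lay within none of the annotated locus genes. The 83 sequences held 78 different seeds. Only 5 seeds were shared, each by 2 members, and no other miRNA on the array with a RefSeq sequence had any of the 5. The following 7 members are shown because their signals differed among the non-neural tissues of the eye, with the seed in capitals.
mmu-miR-127-3p: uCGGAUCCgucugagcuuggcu
mmu-miR-434-3p: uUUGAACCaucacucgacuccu
mmu-miR-154-5p: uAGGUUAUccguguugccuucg
mmu-miR-379-5p: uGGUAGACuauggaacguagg
mmu-miR-410-3p: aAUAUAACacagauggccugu
mmu-miR-300-3p: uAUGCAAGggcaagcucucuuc
mmu-miR-494-3p: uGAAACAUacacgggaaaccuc

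Several members were nearly the same in sequence, and they are shown because an array probe may take up a close relative of its target. Whether this occurred was not tested. With positions counted from the 5′ end and the first name as the reference, miR-300-3p and miR-381-3p differed by G4A, U21G and C22U, miR-376a-3p and miR-376b-3p by G4A, A13C and G20U, and miR-543-3p and miR-495-3p by U6A, U7A, G9A and C10U. In each of these pairs a difference lay within the seed.
mmu-miR-381-3p: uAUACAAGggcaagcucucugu
mmu-miR-376a-3p: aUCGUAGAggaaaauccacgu
mmu-miR-376b-3p: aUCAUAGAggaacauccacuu
mmu-miR-543-3p: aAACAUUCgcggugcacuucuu
mmu-miR-495-3p: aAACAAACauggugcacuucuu

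Members with the same seed could differ in detection. miR-379-5p was detected on 17 arrays, and miR-1193-5p, which has the same seed, on none. The 3p arms of miR-379 and miR-411 shared a seed and differed by U10C and U22C, and the former was detected on no array and the latter on 6. Closest of all were the 5p arms of miR-376b and miR-376c, which shared a seed and differed only by G19U. Of these, miR-376b-5p was detected on 4 arrays and miR-376c-5p on none.
mmu-miR-1193-5p: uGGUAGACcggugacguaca
mmu-miR-379-3p: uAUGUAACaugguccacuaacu
mmu-miR-411-3p: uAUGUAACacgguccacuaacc

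A miRNA counted as detected when the signal of a probe lay above 3 times its error. The signal of a miRNA was the sum over such probes, brought to 1 scale by setting the same 75th percentile, over 79 miRNAs that every array detected, on each array. In these units the lens and cornea arrays were scaled up and the iris arrays down, with log2 factors from −1.01 to 1.65. Between 129 and 249 of all miRNAs were detected per array. The SCN and LGN arrays held all 6 miRNAs of a list of neuronal miRNAs, while miR-96-5p and miR-182-5p, which mark sensory cells, were detected on none of them and miR-183-5p, the other sensory miRNA, on 1 SCN array (8.21) and 1 LGN array (3.97). The retina held all 3 sensory miRNAs at a summed signal of 14498 to 16170, and the cornea held all 4 surface epithelial miRNAs. No surface epithelial miRNA was detected in the lens, where miRNAs of striated muscle summed to 686 to 757. The RPE/choroid and sclera arrays also held neuronal miRNAs, at a mean summed signal of 8.09% and 4.50% of that of the retina. That sum was mostly miR-124-3p, and single neuronal miRNAs reached higher shares.

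All 40 detected members were detected on every SCN array. On the LGN arrays 39 were detected in normal mice, 40 in the 0 D group and 35 in the −30 D group. The retina followed with 22, 28 and 19 members, and the sclera with 14, 10 and 10. There were 7, 8 and 8 in the RPE/choroid, 4, 5 and 5 in the cornea, and 5, 5 and 3 in the iris. In the lens only miR-494-3p was detected, on each of the 3 arrays. It was also the only member detected on all 24 arrays. Of all miRNAs, the lens arrays detected 129 to 149 and the cornea arrays 137 to 172, against 213 to 249 in the other tissues. Detection limits were also higher there, for miR-434-5p 21.9 to 27.4 in the lens and 15.8 to 24.3 in the cornea, against 4.35 to 6.37 in the iris. With a limit of 6 errors in place of 3, the SCN kept 31 to 36 members and the LGN 22 to 27. Under this limit the retina held 14 to 15, the RPE/choroid 4 to 6, the sclera 6 on each array, and the cornea, iris and lens 1 each.

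**Figure D1:**
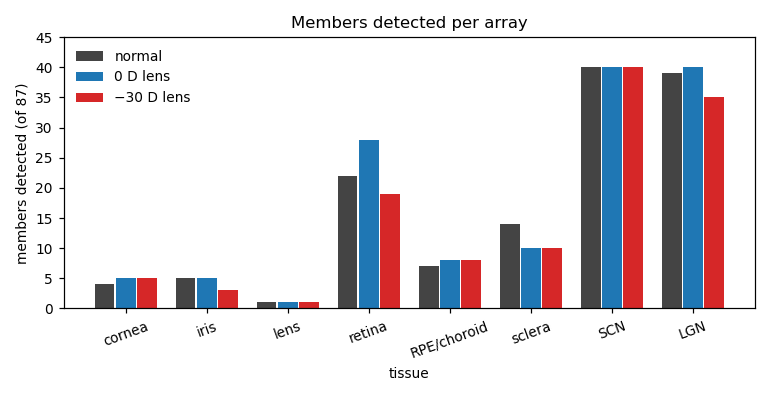
Members detected per array. Bars give the number of the 87 members with a probe above 3 errors (vertical axis) in each tissue (horizontal axis), 1 bar for each lens group. The SCN and LGN bars reach 35 to 40 members, the retina 19 to 28, and the lens 1.

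No member was detected in the eye and absent from the brain arrays, whereas 9 were detected in the brain arrays and on none of the 18 ocular arrays. These were miR-376a-5p, miR-376b-5p, miR-380-3p, both arms of miR-409, miR-411-3p, miR-431-5p, miR-541-5p and miR-770-3p. Where detected in the brain, miR-376a-5p gave 1.55 to 5.30, miR-376b-5p 3.19 to 7.15 and miR-541-5p 3.17 to 9.23. Such levels were not detectable in the cornea, with limits of 15.9 to 24.5, or the lens, with 21.9 to 27.6. For the others listed, mean brain signals of 7.92 to 23.5 were under the highest lens limits, 27.4 to 27.6. The share of all miRNAs with this pattern was not counted. In the retina 28 members were detected on at least 1 array, and 14 in at least 1 of the 5 other ocular tissues, called non-neural here. Only miR-376b-3p, miR-376c-3p and miR-411-5p were detected in a non-neural tissue and not in the retina, and each of them on the normal sclera array alone. Another 6 members were detected on the 0 D retina array and on neither other retina array, with signals of 1.42 to 3.31, near the lowest detected signal of that array, 1.28.

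Detection differed between groups of hairpins chosen by their place in the locus. For comparison, 394 of all 1881 miRNAs were detected on at least 1 array. Of the 10 members of the Rtl1 antisense group (the arms of miR-431, miR-433, miR-127, miR-434 and miR-136), 8 were detected, from all 5 hairpins. Of the 14 members on the Meg3 side and in Rian, 3 were detected, namely miR-770-3p, miR-337-3p and miR-370-3p. The arms of miR-673, miR-493, miR-337, miR-540 and miR-665 are counted here, although they also lay within the annotated bounds of Rtl1. The large group of hairpins from miR-379 to miR-410, at and upstream of Mirg, had 29 of 63 members detected, from 22 of 32 hairpins. Among the 30 hairpins with a detected arm, 10 had both arms detected and 20 only 1. On all 3 retina arrays, 1 member of the Meg3 side and Rian, 5 of the Rtl1 antisense group and 13 of the miR-379 to miR-410 group were detected. A probe's brightness depends on its sequence, so levels were compared between arrays and not between members.

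**Figure D2:**
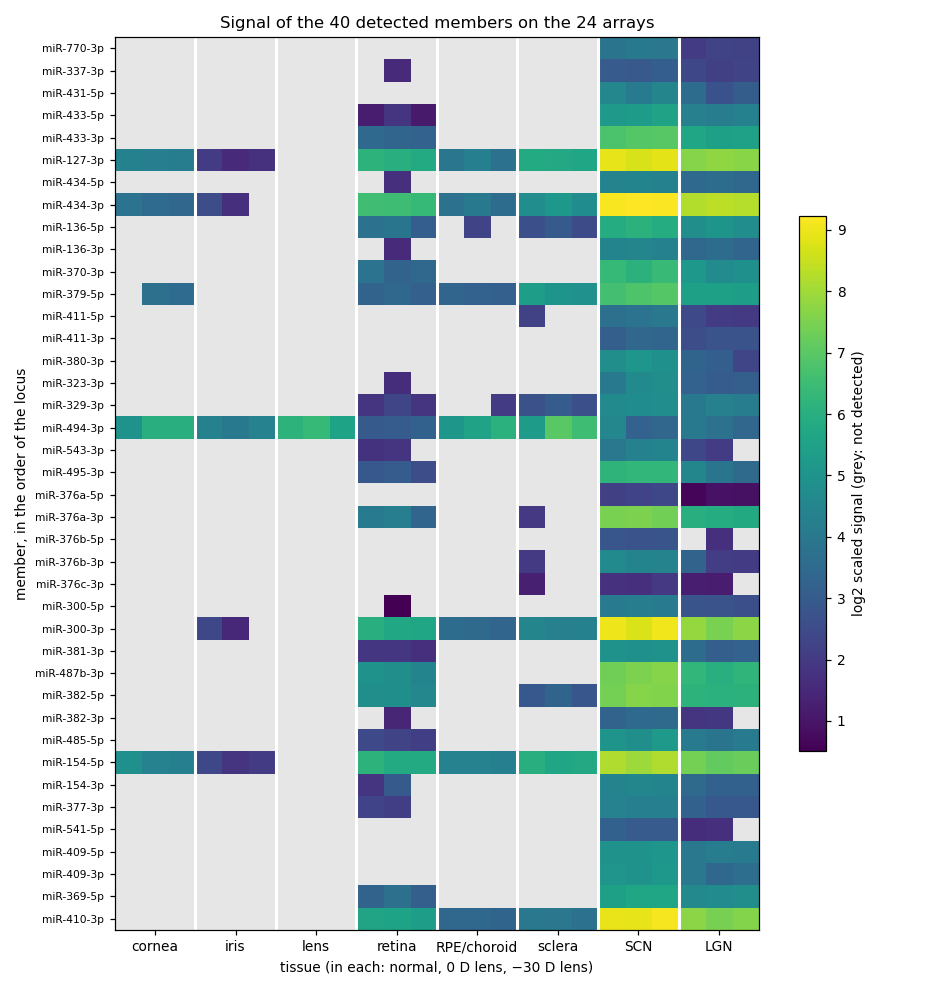
Signal of the 40 detected members. Rows are members in the order of the locus, columns are the 24 arrays (for each tissue normal, 0 D and −30 D), and the color gives the log2 scaled signal, with gray for not detected. The SCN and LGN columns are filled for 35 to 40 members, the retina is filled for 19 members on all 3 arrays, and miR-494-3p is the 1 row with color in every column.

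The brightest members had their highest signals in the SCN. For miR-434-3p, of the Rtl1 antisense group, the scaled signal in normal, 0 D and −30 D mice was 573, 601 and 583 in the SCN and 302, 332 and 306 in the LGN. The same 3 arrays of the retina gave 93.4, 92.3 and 80.9, and those of the sclera 27.7, 35.4 and 26.8. The 4 tissues did not overlap, and their order was SCN, LGN, retina and sclera. The signal of miR-434-3p was lower still in the RPE/choroid, at 13.4, 16.4 and 12.2, and in the cornea, at 14.1, 11.8 and 10.3, which overlapped each other. In the iris it was 5.91 in normal mice, 3.28 with the 0 D lens, and not detected with the −30 D lens.

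The signal of miR-410-3p, at the far end of the locus, was 490.1, 484.9 and 553 in the SCN, 209, 175 and 194 in the LGN, and 48.6, 46.9 and 42.6 in the retina. In the sclera it was 15.9, 15.8 and 13.8 and in the RPE/choroid 10.9, 10.6 and 9.93, without overlap. It was not detected in the cornea, iris or lens. miR-300-3p behaved alike in order, with 518, 425 and 529.7 in the SCN and 233, 177 and 211 in the LGN. It gave 62.7, 52.5 and 51.2 in the retina, 22.5, 19.6 and 20.03 in the sclera, and 11.99, 11.5 and 10.3 in the RPE/choroid. For both members these 5 tissues held the same order without overlap. In the iris miR-300-3p was detected at 5.21 in normal and 2.77 in 0 D mice.

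Tissues were compared in a limma fit with the tissue and the lens group as terms, on log2 signals with a common floor of 9.93, the highest lower limit of any array. Here 306 miRNAs, 35 of them members, had a value above the floor, and p-values were adjusted over the 306. Of the 35 members, 33 were higher in the brain arrays than in the non-neural ocular tissues, 1 was lower, and miR-411-3p was not called, at an adjusted limma p under 0.05. Most of the 35 were at the floor on every non-neural array. Such members could only be called higher in the brain, so the split of directions was largely set in advance. Over all miRNAs tested, 81.7% were called, 40.5% as higher and 41.2% as lower, and the median log2 difference was 1.14 for the members and −0.03 for all. The differences of the members led by miR-434-3p (4.96 ± 0.06, log2 ± SE), miR-410-3p (4.84 ± 0.04), miR-300-3p (4.75 ± 0.05), miR-127-3p (4.14 ± 0.05) and miR-382-5p (3.52 ± 0.04) had adjusted p-values from 2.3e-22 to 5.8e-20 in limma. The member called lower was miR-494-3p, at −1.82 ± 0.25 (adjusted p = 3.8e-06, limma). The floor stands in for undetected signals and lies below the detection limits of the lens and cornea arrays, so differences of dim members can be under- or overstated, and the spread is pooled with arrays at the floor. With a normexp background (offset 50), which shifted the median of all miRNAs to −0.42, the members called were 22 higher and 7 lower, with a median of 0.20. Of all 352 miRNAs tested there, 87 were called higher and 234 lower.

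A bound that uses the detection limit of each array gives a plainer view of the members not detected outside the nervous tissues. There were 22 members detected on all 6 brain arrays and on none of the 15 non-neural arrays. For 17 of them the mean brain signal was above the mean limit over the non-neural arrays, by at least 1.09-fold to at least 9.85-fold. It was above the limit of every non-neural array for 6 of these, and for the other 11 it was under the limit of at least 1 array. The highest bounds were those of miR-487b-3p (at least 9.85-fold), miR-433-3p (at least 6.46-fold), miR-370-3p (at least 4.23-fold), miR-369-5p (at least 3.06-fold) and miR-495-3p (at least 3.002-fold). For the other 5, miR-770-3p, miR-337-3p, miR-411-3p, miR-376a-5p and miR-300-5p, no difference was detectable at these limits, although 2 of them were among those called higher in the fit.

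The SCN was compared with the LGN within each lens group, since both lay on the same slide. In limma 33 of 35 members were higher in the SCN and 0 lower, while 39.9% of all miRNAs were called, 31.7% as higher and 8.17% as lower. Not called were miR-411-3p, at 8.84, 10.5 and 10.2 in the SCN and 5.86, 6.66 and 6.69 in the LGN, mostly under the floor, and miR-494-3p. A fit on the 6 brain arrays alone, added after the data were seen, called 32 of 35 members. Of all 205 miRNAs in that fit, 103 were called higher in the SCN and 24 lower.

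Without any floor, 35 members and 168 other miRNAs could be measured on all 6 brain arrays. The members had a median SCN to LGN ratio of 2.44-fold (log2 1.29), and 34 of them were higher in the SCN in all 3 lens groups. The median of the other 168 was 1.29-fold (log2 0.36), with 101 of them higher in all 3 groups. The middle 50% of the members lay between log2 0.95 and 1.45, and that of the other miRNAs between −0.04 and 0.74. Members at both ends of the locus and of all groups took part.

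**Figure D3:**
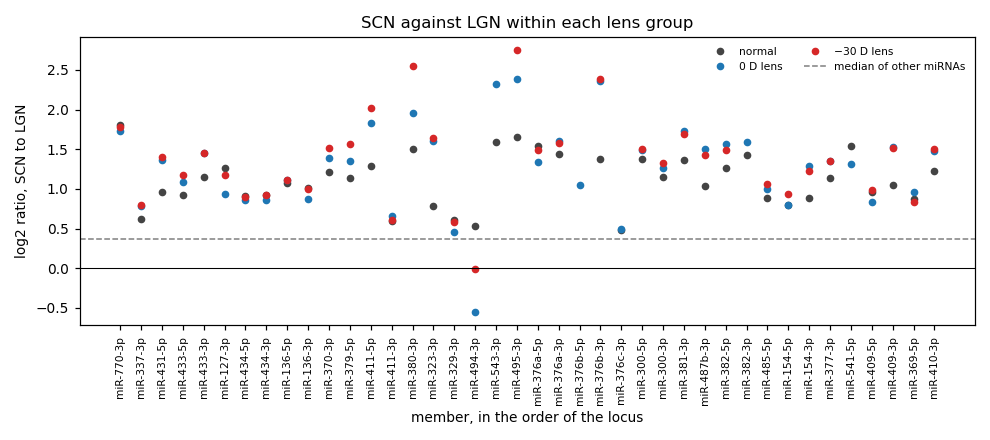
SCN against LGN within each lens group. Points give the log2 ratio of the SCN to the LGN signal (vertical axis) of each member in the order of the locus (horizontal axis), and the dashed line the median of the other miRNAs, 0.36. All points lie above 0 except those of miR-494-3p with a lens, and miR-495-3p reaches 2.75.

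The ratio was largest for miR-495-3p, whose signal in normal, 0 D and −30 D mice was 72.4, 77.5 and 77.8 in the SCN and 23.0, 14.8 and 11.6 in the LGN. Its log2 ratio was 1.65, 2.39 and 2.75 in the 3 groups, and 2.26 ± 0.14 (SE) in limma (adjusted p = 6.9e-10). The SCN values were alike, whereas the LGN value of the −30 D array was under that of the normal array. For miR-376b-3p, at 24.9, 21.8 and 20.99 in the SCN, the LGN signal was 9.62, 4.24 and 4.02. miR-380-3p had a ratio close to that of miR-376b-3p, at 28.3, 33.7 and 29.8 in the SCN and 10.01, 8.65 and 5.07 in the LGN. In these 3 members the ratio was smallest in normal mice. The same held for most members, among them miR-323-3p (0.79, 1.61 and 1.64) and miR-410-3p (1.23, 1.47 and 1.51). Lens group and slide cannot be told apart here. For some members the ratio was nearly the same in every group, as for miR-434-3p (0.92, 0.86 and 0.93), miR-136-5p (1.07, 1.11 and 1.12) and miR-770-3p (1.81, 1.73 and 1.78). The smallest of the ratios that were above 0 in every group was that of miR-329-3p, at 0.61, 0.46 and 0.58.

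Of the 6 neuronal miRNAs, miR-129-5p was higher in the SCN (log2 0.60 ± 0.13, SE) and miR-128-3p lower (−0.74 ± 0.25, adjusted p = 0.027, limma), and the other 4 were not called. Their summed signal was 3652 to 4018 in the SCN and 3938 to 4607 in the LGN, so the ranges overlapped. Both oligodendrocyte miRNAs were lower in the SCN, with a log2 difference of −1.54 ± 0.14 (SE) for miR-219a-5p and −1.34 ± 0.19 for miR-338-3p. Their summed signal was 216 to 332 in the SCN and 589 to 877 in the LGN. The part of cell composition in the ratios of the members was not tested. In samples of whole tissue, fewer cells of a type and less RNA per cell cannot be told apart.

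The retina had a lower signal than both brain samples for nearly all members. In limma 32 of 35 members were higher in the brain arrays than in the retina and 0 lower, against 56.9% of all miRNAs called, 34.6% as higher and 22.2% as lower. Not called were miR-382-3p, miR-411-3p and miR-494-3p. Most of the 35 were at the floor on every retina array and could only be called higher in the brain. The 18 members other than miR-494-3p that were detected on all retina and brain arrays had a retina signal of 8.73% to 28.9% of the mean over the brain arrays, with a median of 18.6%. Of the 6 neuronal miRNAs, 4 were called higher in the brain arrays than in the retina in limma and 2 lower.

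The largest retina to brain difference in limma was that of miR-433-3p, of the Rtl1 antisense group (log2 2.83 ± 0.04, SE, adjusted p = 5.6e-18). Its signal was 109.6, 122 and 125 in the SCN, 49.5, 44.5 and 45.6 in the LGN, and 11.2, 10.2 and 9.53 in the retina. It was detected in no other ocular tissue. miR-376a-3p gave 177, 180.3 and 167 in the SCN, 65.0, 59.4 and 55.8 in the LGN, and 17.0, 18.7 and 10.2 in the retina. Outside the nervous tissues it was detected only in the normal sclera, at 3.89. Relative to the brain mean, miR-154-5p (28.9%), miR-369-5p (28.3%) and miR-136-5p (27.0%) had the highest retina signals, and miR-433-5p (8.73%) the lowest. Members detected on all brain arrays and no retina array were led by miR-409-5p (at least 3.96-fold higher in the brain), miR-409-3p (at least 3.51-fold) and miR-380-3p (at least 2.59-fold).

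Against the non-neural ocular tissues, 10 of 35 members were higher in the retina and 2 lower in limma, while 66.3% of all miRNAs were called, 31.4% as higher and 35.0% as lower. The 10 were miR-434-3p (log2 2.69 ± 0.08, SE), miR-300-3p (2.23 ± 0.06), miR-410-3p (2.07 ± 0.05), miR-127-3p (1.87 ± 0.07), miR-154-5p (1.70 ± 0.08), miR-487b-3p (1.43 ± 0.08), miR-382-5p (1.41 ± 0.05), miR-376a-3p (0.57 ± 0.10), miR-136-5p (0.36 ± 0.07) and miR-370-3p (0.20 ± 0.07). The share of members called was 34.3%, below that of all miRNAs, since most members were at the floor in both groups. Members at the floor on every non-neural array could only be called higher in the retina. On the lens arrays, however, the detection limits of miR-376a-3p, miR-136-5p and miR-370-3p were 21.9 to 27.6, above their retina signals, and on the cornea arrays they were 15.8 to 24.6, above most of these signals, so that for these 3 a difference from the lens was not detectable and their calls rest on the floor. The lens limits of miR-487b-3p and miR-382-5p, 21.9 to 27.5, overlapped their retina signals. Without scaling the split was 17 higher and 1 lower, against 152 and 82 of all 345 miRNAs. With normexp, which moved the median of all miRNAs to −0.67, it was 7 higher and 30 lower, against 66 and 258 of all 352.

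miR-487b-3p, from the miR-379 to miR-410 group, was detected in the retina at 31.1, 28.1 and 21.7 and on no non-neural array, so that against the mean limit of those arrays it was at least 2.32-fold higher in the retina. In the SCN it gave 160.0, 181 and 199.8 and in the LGN 78.1, 63.9 and 74.5. These 3 tissues did not overlap. miR-382-5p gave 27.9, 28.7 and 23.2 in the retina and 7.49, 10.01 and 7.09 in the sclera, and was detected in no other non-neural tissue. Its signal was 168, 202 and 193 in the SCN and 70.2, 68.2 and 68.7 in the LGN.

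Among the non-neural tissues the cluster was best represented in the sclera. There 16.1%, 11.5% and 11.5% of the members were detected in normal, 0 D and −30 D mice, against 12.7%, 11.5% and 11.5% of all miRNAs. In the cornea, iris, lens and RPE/choroid the share of members was below that of all miRNAs on every array. The signal of miR-127-3p, which acts on the Rtl1 transcript, was 56.6, 54.5 and 49.5 in the sclera, 20.5, 18.9 and 18.5 in the cornea, and 15.4, 19.5 and 13.9 in the RPE/choroid. The iris gave 4.04, 2.94 and 3.37. The sclera lay above the cornea and RPE/choroid, which overlapped, and the iris below them. In the retina miR-127-3p gave 70.1, 63.9 and 57.7, in the SCN 482, 419 and 465, and in the LGN 200.2, 219 and 205. It was not detected in the lens, where its detection limit was 22.1 to 27.5, above its signal in the cornea. A level in the lens like that of the cornea, RPE/choroid or iris was therefore not detectable.

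miR-154-5p, encoded within Mirg, showed the same order with smaller gaps. It gave 63.2, 50.6 and 55.1 in the sclera, 29.5, 20.7 and 19.2 in the cornea, and 20.5, 20.8 and 19.2 in the RPE/choroid. The iris gave 5.22, 3.62 and 4.14. In the retina it gave 71.2, 57.8 and 57.5, which overlapped with the sclera. Its signal was 293, 245 and 290.2 in the SCN and 169, 141 and 152 in the LGN.

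miR-379-5p stood at 41.1, 32.2 and 30.5 in the sclera, against 9.83, 10.6 and 9.17 in the retina and 10.2, 9.43 and 9.12 in the RPE/choroid. In the cornea it was detected at 13.4 and 11.7 with the 0 D and −30 D lens and not in normal mice, and it was not detected in the iris or lens. Its signal in the SCN was 97.6, 113 and 121 and in the LGN 44.2, 44.4 and 40.8, so that the sclera was nearer to the LGN than the retina was. The sclera reached 31.3% of the mean SCN signal for miR-379-5p and 26.3% for miR-329-3p, against 20.4% for miR-154-5p, 11.8% for miR-127-3p, 5.1% for miR-434-3p, 4.2% for miR-300-3p and 3.0% for miR-410-3p. miR-329-3p gave 6.41, 8.25 and 6.22 in the sclera and 3.55, 4.99 and 3.48 in the retina. In the RPE/choroid it was detected only with the −30 D lens, at 4.11. In the SCN it gave 25.02, 26.9 and 27.4 and in the LGN 16.4, 19.6 and 18.3.

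**Figure D4:**
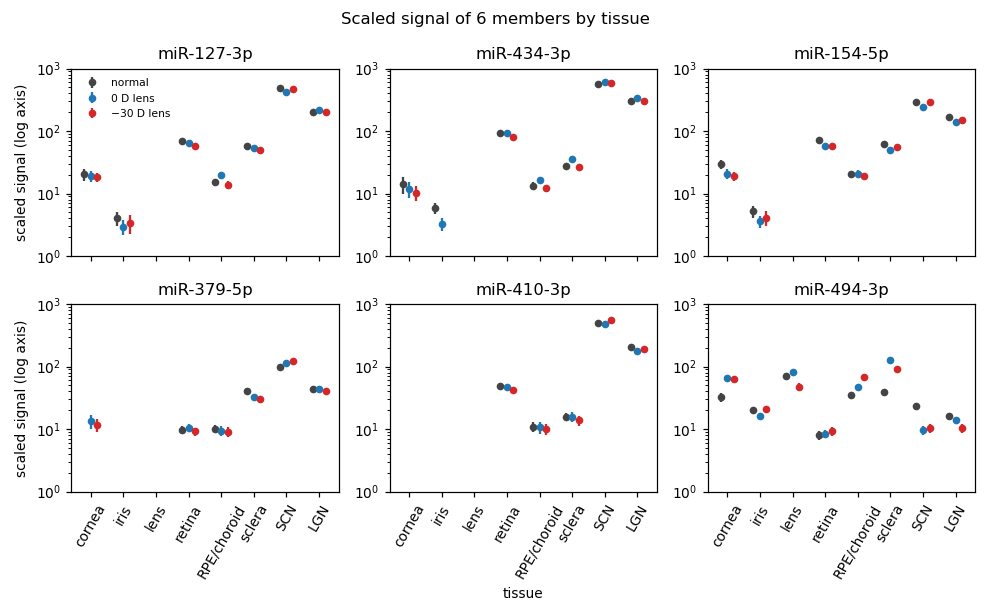
Scaled signal of 6 members by tissue. The vertical axis is logarithmic, points are single arrays colored by lens group, bars are the error of the signal within the array, and tissues without a point were not detected. miR-127-3p, miR-434-3p, miR-154-5p and miR-410-3p are highest in the SCN and next in the LGN, miR-379-5p is higher in the sclera than in the retina, and miR-494-3p is highest in non-neural tissues.

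The sclera was set against the retina in a comparison added after the data were seen. In limma 2 of 35 members were higher in the sclera and 8 lower, against 65.0% of all miRNAs called, 31.4% as higher and 33.7% as lower. Higher were miR-494-3p (log2 2.96 ± 0.42, SE, adjusted p = 9.7e-06) and miR-379-5p (1.76 ± 0.11, adjusted p = 2.2e-10). The largest of the 8 lower differences were those of miR-410-3p (−1.60 ± 0.07), miR-434-3p (−1.58 ± 0.10) and miR-487b-3p (−1.43 ± 0.10), while miR-127-3p differed by −0.25 ± 0.09 (adjusted p = 0.022). For miR-154-5p the difference was −0.14 ± 0.10 (adjusted p = 0.26, limma). With normexp, which moved the median of all miRNAs to 0.51, the split was 26 higher and 4 lower, against 220 and 77 of all 352 miRNAs. Against the 5 non-neural tissues together miR-379-5p was lower in the retina (−0.37 ± 0.08, adjusted p = 6.9e-04, limma), but without scaling the difference was 0.70, with the percentile over all detected miRNAs 0.29, and with undetected miRNAs at 0.1 it was 2.69.

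The summed signals of the neuronal and sensory miRNAs in the sclera were at 4.50% and 4.49% of those in the retina, and in the RPE/choroid at 8.09% and 7.09%. The neuronal sum was mostly miR-124-3p, and neuronal miRNAs taken singly ranged up to 13.5% in the sclera and 21.2% in the RPE/choroid, both for miR-9-3p. Shares of members were taken only where all 3 arrays of the tissue detected them, so low shares could be missed. For example, miR-487b-3p was not detected in the sclera and was at least 2.87-fold higher in the retina. In the sclera, besides miR-494-3p, the shares were 30.8% for miR-382-5p, 32.9% for miR-410-3p, 33.7% for miR-434-3p, 37.3% for miR-300-3p and 53.0% for miR-136-5p. The others were 83.8% for miR-127-3p, 90.6% for miR-154-5p, 174% for miR-329-3p and 350.4% for miR-379-5p. In the RPE/choroid, again besides miR-494-3p, the shares were 15.8% for miR-434-3p, 20.3% for miR-300-3p, 22.8% for miR-410-3p, 25.4% for miR-127-3p, 32.5% for miR-154-5p and 97.1% for miR-379-5p. The mesenchymal miRNAs, a list of 5, summed to 1113 to 1303 in the sclera, 514 to 562 in the RPE/choroid, 434.3 to 446 in the iris, 249 to 284 in the cornea and 3.63 to 4.80 in the retina, and none was detected in the lens. In the sclera this sum was mostly miR-199a-3p, at 832 to 929. Not all of the list was highest in the sclera. miR-143-3p was at 304 to 310 in the iris against 24.1 to 39.9 in the sclera, and miR-145a-5p was detected in the iris alone. The part of these cell types in the signals of the members was not tested.

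Over the 5 non-neural tissues, 7 of 35 members differed between tissues in limma (F test), against 69.3% of all miRNAs. These were the 7 shown first among the sequences, miR-127-3p, miR-154-5p, miR-300-3p, miR-379-5p, miR-410-3p, miR-434-3p and miR-494-3p, and their number was 7 without any 1 of the 24 arrays. miR-136-5p, not called here, was measured in the sclera at 6.28, 7.92 and 5.62, under the floor, and in the retina at 13.9, 14.9 and 8.59. In the RPE/choroid it was detected only with the 0 D lens, at 4.89, and in the brain at 59.4, 69.9 and 59.7 in the SCN and 28.3, 32.3 and 27.6 in the LGN.

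miR-494-3p had another order of tissues than the rest. Its signal in normal, 0 D and −30 D mice was 39.3, 129 and 90.9 in the sclera, 70.7, 81.3 and 47.5 in the lens, 32.0, 64.8 and 64.2 in the cornea, and 34.5, 46.5 and 67.7 in the RPE/choroid. These 4 tissues overlapped. It was 20.3, 16.2 and 20.9 in the iris, 23.3, 9.55 and 10.3 in the SCN, 16.2, 14.03 and 10.4 in the LGN, and 7.96, 8.33 and 9.24 in the retina, which lay below all other tissues. The means were 86.4 ± 44.98 in the sclera, 66.5 ± 17.3 in the lens, 53.7 ± 18.8 in the cornea, 49.5 ± 16.8 in the RPE/choroid, 19.1 ± 2.5 in the iris, 14.4 ± 7.7 in the SCN, 13.5 ± 2.9 in the LGN and 8.51 ± 0.66 in the retina (SD, n = 3 arrays). Neighbors in this order did not differ beyond their SDs except the RPE/choroid and the iris, and the LGN and the retina. In limma it was lower in the retina than in the non-neural tissues, with a difference of −2.25 ± 0.33 (log2 ± SE, adjusted p = 1.1e-05). The other 6 of the 7 members that differed among the non-neural tissues were all called higher in the brain than there.

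The effect of the lens was asked first over all tissues, with the tissue as a term. For −30 D against normal, 0 of 35 members were called in limma and 0 of all 306 (0%), with 1 member and 24 miRNAs at an unadjusted p under 0.05. The member was miR-154-5p, at −0.17 ± 0.06 (log2 ± SE, adjusted p = 0.32). All members lay between −0.17 and 0.11. For 0 D against normal, which shares the normal arrays, 0 members were called in limma against 0.654% of all, with 3 members and 39 miRNAs at an unadjusted p under 0.05. These 3 were miR-154-5p (−0.20 ± 0.06, adjusted p = 0.14), miR-300-3p (−0.15 ± 0.05) and miR-370-3p (−0.15 ± 0.06). For −30 D against 0 D, 0 members were called in limma against 0.327% of all, and the 2 members at an unadjusted p under 0.05 were miR-434-3p (−0.17 ± 0.06, adjusted p = 0.15) and miR-136-5p (−0.13 ± 0.06). Since the tissues enter together, an effect in a single tissue can be missed here.

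The difference of the −30 D effect between ocular and brain tissues was tested as an interaction. In limma 0 members were called against 0.654% of all, with 11 members and 29 of all 306 miRNAs at an unadjusted p under 0.05. The smallest adjusted p was 0.31, for miR-329-3p, and the largest difference was that of miR-494-3p (1.35 ± 0.50, adjusted p = 0.41). The count depended on single arrays, mainly of the brain, with 11 members called without the normal LGN array, 5 without the normal SCN array, 4 without the −30 D LGN array, 2 without each of the 0 D SCN, 0 D LGN and −30 D SCN arrays, and 1 without the 0 D retina array. The counts over all miRNAs in these fits are not given here, so the member counts cannot be read as particular to the cluster.

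Within a tissue, each lens array was compared with the normal array by the criteria of the methods, a ratio above 2 or below 0.5 where both arrays detected the miRNA. Where only 1 of them did, the limits were 5 and 0.2. With 1 array each there is no test, and the ± values are errors within the arrays. Over the 8 tissues, 19 pairs of a member and a tissue met the criteria for the −30 D lens, which is 14.2% of the pairs with a detected signal against 17.2% of all miRNAs. For the 0 D lens 18 of 141 pairs met them, 12.8% against 15.6%. In the −30 D group 4 were higher and 15 lower, and in the 0 D group 12 were higher and 6 lower. Counts per tissue were small. In the cornea 2 of the 5 members detected on each lens array, miR-494-3p and miR-379-5p, were higher with either lens. Of all miRNAs, 33.0% and 21.0% changed for −30 D and 0 D. In the LGN 5 of the 39 members detected in normal mice were lower for −30 D (background 16.5%). Of the 40 detected in 0 D mice, 1 was lower and 1 higher for 0 D (background 11.6%). The RPE/choroid had 1 higher member with each lens, of 8 detected on each lens array. These were miR-329-3p for −30 D and miR-136-5p for 0 D, against 14.4% and 12.9% of all miRNAs. In the iris miR-434-3p and miR-300-3p, of 5 members detected in normal mice, were lower for −30 D (background 17.9%). None changed there for 0 D (background 17.0%), and in the lens none changed with either. Most rested on detection on 1 array, 15 of 19 and 13 of 18, and for none of these did the detection limits allow a ratio above 1 to be given.

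Where both arrays detected a member, ratios were small. For the −30 D lens 115 of 119 pairs were within 2-fold, and without miR-494-3p 110 of 111. For the 0 D lens 123 of 128 were, and without miR-494-3p 118 of 120. Besides miR-494-3p the exceptions were miR-376b-3p in the LGN, at −1.26 ± 0.52 (log2) with the −30 D and −1.18 ± 0.44 with the 0 D lens, and miR-154-3p in the retina, at 1.13 ± 0.50 with the 0 D lens. The signal of miR-154-3p in the retina was 3.59 in normal and 7.84 in 0 D mice.

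**Figure D5:**
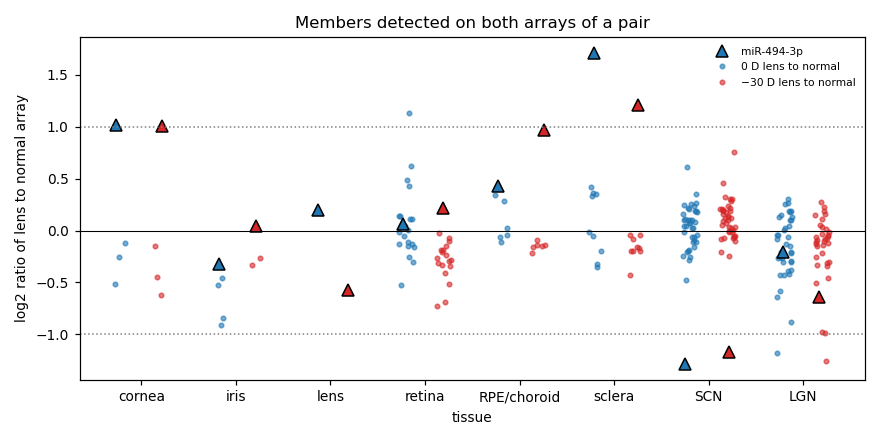
Log2 ratio of the lens array to the normal array (vertical axis) of the members detected on both arrays in each tissue (horizontal axis), blue for the 0 D and red for the −30 D lens. Dotted lines mark 2-fold, triangles are miR-494-3p, and most other points lie within the lines.

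miR-494-3p met the criteria in the same 3 tissues with both lenses. In the SCN it was the only such member of 40 detected, against 12.4% and 14.9% of all miRNAs for −30 D and 0 D. Its log2 ratio to normal was −1.17 ± 0.31 with the −30 D and −1.29 ± 0.29 with the 0 D lens. In the sclera the ratio was 1.21 ± 0.17 and 1.71 ± 0.17, and in the cornea 1.004 ± 0.27 and 1.02 ± 0.28. Both lens arrays were read against the same normal array of each tissue. In the RPE/choroid the ratios were 0.97 ± 0.18 and 0.43 ± 0.19, within 2-fold, and in the retina 0.22 ± 0.32 and 0.07 ± 0.31.

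In the neural tissues the members as a group moved little with the lens. In the SCN the median log2 ratio of the 40 members was 0.10 for the −30 D and 0.06 for the 0 D group, and that of 196 other miRNAs −0.09 and −0.22. In the LGN it was −0.10 over 35 members and −0.15 over 39, and that of the others 0.18 and 0.07. In the retina 18 of 19 members had a lower signal with the −30 D lens than in normal mice, with a median of −0.27, and the median of 203 other miRNAs was −0.21. With the 0 D lens the median in the retina was 0.02 over 22 members, 12 of them above 0. These are values of single arrays, with no test.

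Members that met the criteria by detection on 1 array often shared an array. miR-411-5p, miR-376a-3p, miR-376b-3p and miR-376c-3p were detected in the sclera of normal mice at 2.44 to 4.58 and on neither lens array. With miR-494-3p, 5 of the 14 members detected in the normal sclera thus met the criteria there with each lens. Of all miRNAs 28.7% did in the −30 D and 22.9% in the 0 D group. In the LGN miR-543-3p, miR-376c-3p, miR-382-3p and miR-541-5p were detected in normal and 0 D mice and not with the −30 D lens. miR-543-3p, miR-154-3p and miR-377-3p were detected in the retina of normal and 0 D mice and not with the −30 D lens, and the 2 signals of miR-543-3p were 3.43 and 3.54. These 3, of the 22 members detected in the normal retina, were the only members that met the criteria there with the −30 D lens. Of all miRNAs 3.9% did. With the 0 D lens 7 of the 28 members detected on the 0 D retina array met them, against 9.64% of all miRNAs. The lowest detected signal was 4.35 on the −30 D sclera array and 2.29 on the normal one, so the former could not have shown most of these sclera signals.

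Of 10 miRNAs from other imprinted genes, 3 could be tested in limma (the list was miR-675, miR-483, miR-296, miR-298 and miR-335, both arms). In the brain arrays 2 of the 3 were higher and 1 lower than in the non-neural tissues. In the SCN miR-296-5p (log2 1.84 ± 0.17, SE, adjusted p = 9.1e-08) and miR-335-5p (0.53 ± 0.06, adjusted p = 1.9e-06) were higher than in the LGN, and miR-483-3p was not called.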

How the data were processed

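Total RNA (100 ng) was labeled with cyanine 3 and applied to Agilent mouse miRNA arrays. The authors scanned them with Agilent Feature Extraction 10.7.1.1 (submitters' processing notes), and the deposited intensity of each probe is its total signal after background subtraction, with an error. A deposited table named normalized was not used here. Signals were summed over probes above 3 errors and scaled to the 75th percentile over 79 miRNAs. Values under the common floor of 9.93 were set to it, log2 was taken, and miRNAs detected on at least 3 arrays were fitted in limma 3.58.1 (R 4.3.3) with tissue and lens group, and Benjamini-Hochberg adjustment over 306. Of 40 members that passed this filter, 5 were at the floor on every array and had no value to test. Undetected sides of bounds were taken as 3 errors summed over the probes, or the array's lowest detected signal where higher. No member spot was saturated. The fit was tested on simulated data. Members, miRNA lists and tests were chosen with earlier results of these data known. The members named with their values were the 10 detected on most arrays, the 5 with the largest called changes per direction and contrast, and those that met the criteria in 2 or more tissues with a lens. Members beyond these were named for small counts, bounds or position after their values were seen. Marker lists were written from general knowledge. Alternatives were other scalings, floors, filters, a normexp background, the model without the lens group, and the fit without each array. The 4 members miR-376c-3p, miR-487b-3p, miR-539-3p and miR-485-5p had no matching RefSeq entry. Figures were drawn with Python 3.11.15 and matplotlib 3.10.9.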

Additional observations from a re-analysis of the deposited data

How the results depend on the processing

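Counts of members called moved by over 1.5 times as follows. With quantile normalization 18 members were called between brain and non-neural tissues, 15 between brain and retina, 17 between SCN and LGN and 1 in the interaction, over 22 members tested. With detection on at least 12 arrays, 10, 9 and 9 were called in the first 3 of these, over 10 members tested. In both cases fewer members were tested. Of all 259 miRNAs tested with quantile normalization, 193, 131, 85 and 3 were called in the same comparisons. Of all 197 tested with detection on at least 12 arrays, 175, 130 and 82 were called in the first 3. With undetected miRNAs at 0.1, 27 of 40 members were called between retina and non-neural tissues, against 247 of all 352 miRNAs. With normexp 37 of 40 members were called there, 30 between sclera and retina and 40 among the non-neural tissues. Of all 352 miRNAs, 324, 297 and 351 were called in these 3 comparisons with normexp. The added offset lifts undetected miRNAs above the floor by construction. Without scaling 16 of 39 members were called between sclera and retina, against 223 of all 345 miRNAs. Also without scaling, 28 pairs met the criteria with the 0 D lens, and the share over all miRNAs is not given for them. For miR-379-5p the retina to non-neural difference of −0.37 became 0.29 with the percentile over all detected miRNAs, 0.70 without scaling and 2.69 with undetected miRNAs at 0.1, and the cause was not tested.

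Without 1 array at a time, 33 to 35 members were called between brain and non-neural tissues, 12 to 14 between retina and non-neural tissues, 32 to 33 between brain and retina, 32 to 34 between SCN and LGN, 9 to 12 between sclera and retina, 7 among the non-neural tissues, 0 in each lens comparison, and 0 to 11 in the interaction. Counts over all miRNAs are not given for these fits. The differences of miR-494-3p over the tissues, which were not called, changed sign: for −30 D against normal it was 0.11, from −0.081 to 0.30 without 1 array at a time, with −0.017 without the normal cornea, −0.081 without the normal sclera and −0.0016 without the −30 D RPE/choroid array. For −30 D against 0 D it was −0.09, from −0.21 to 0.043 without 1 array at a time and 0.11 with normexp, with 0.043 without the 0 D sclera and 0.0026 without the −30 D lens array. No paired analysis by replicate number was possible because the labels number no replicates; the tissue and the lens group, by which arrays pair, were terms of the fit.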
